A study of Mus musculus with 5 samples.

Results

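Heme synthesis enzymes were measured in GFP-positive cells that flow cytometry isolated from SPC-GFP mouse lungs on postnatal day 2. The enzymes comprised 8 genes, Alas1, Alas2, Alad, Uros, Urod, Cpox, Ppox and Fech, taken as all probe sets that a platform annotation assigns to 1 of these symbols alone. They had 19 probe sets of 34958 with 1 gene symbol, and 8 genes of 18194. Parents of every sample were SPC-GFP mice and mice of the outbred ICR strain. The 5 biological replicates, each with its own array, form 1 group, so no treatment, age or genotype was compared. SPC usually stands for surfactant protein C, a product by which alveolar type 2 cells are known. The labels' titles call the cells alveolar type 2 cells and the design text calls them ciliated cells. The promoter construct behind the GFP is not described in the labels, nor whether a replicate was 1 pup or a pool. P-values therefore rest only on spread between these 5 samples, that of the gene itself and that of genes of like signal.

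Heme is an iron-containing ring carried by cytochromes, catalase, globins and other proteins. Its synthesis starts in the mitochondrion, where an aminolevulinate synthase joins glycine to succinyl-CoA, runs through the cytosol, and ends in the mitochondrion, where iron is inserted. The first step has a pair of isozymes: ALAS1 is found in most cells and is held back by heme, and ALAS2 is the enzyme of developing red cells.

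Values are deposited log2 signals, which ran from 2.46 to 15.24; the log base was inferred from that range. Array medians lay between 7.12 and 7.19. The background of an array was the 95th percentile of 78 olfactory, vomeronasal, taste and trace amine receptor genes, and it lay between 5.41 and 5.69. Where a gene had several probe sets, the one with the highest mean stands for it, and signals of different probe sets were not ranked against each other. The 8 alveolar type 2 markers examined, Sftpc among them, had means of 13.69 to 14.71, and 9 ciliated markers had means of 6.66 to 9.75. The summed linear signal of the ciliated markers was 2.79 times as high in replicate 1 as in replicate 3, and the hybridisation controls bioB and bioC averaged 12.57 in replicate 1 against 11.63 to 11.79 elsewhere. Replicate 3 had the largest difference between 3′ and 5′ control probe sets of Gapdh (1.67 against 1.27 to 1.60) and Actb (0.84 against 0.54 to 0.60).

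The stretches before the start sites of 4 of the genes are shown because they belong to the 3 enzymes with the largest variance relative to genes of like signal (Alad, Alas2 and Ppox) or to the other first-step isozyme (Alas1). They are the 250 bases before the annotated start, or the start farthest upstream where there is more than 1, from RefSeq on GRCm38.p6, written 5′ to 3′ in the direction of transcription. Positions count to the 5′ base of a match, and capitals mark matches on either strand to AGATAA (the GATA factor motif), GCATGCG (the core of the NRF1 motif), CACGTG (E-box), GGGCGG (GC box) or CCAAT.
Alas1, GRCm38.p6 chr9:106247955-106248204, minus strand: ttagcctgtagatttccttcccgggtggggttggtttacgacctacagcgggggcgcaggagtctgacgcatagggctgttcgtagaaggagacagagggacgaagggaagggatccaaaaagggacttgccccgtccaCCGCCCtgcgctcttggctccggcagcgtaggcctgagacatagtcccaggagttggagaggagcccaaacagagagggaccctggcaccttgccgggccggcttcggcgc
Alas2, GRCm38.p6 chrX:150547167-150547416, plus strand: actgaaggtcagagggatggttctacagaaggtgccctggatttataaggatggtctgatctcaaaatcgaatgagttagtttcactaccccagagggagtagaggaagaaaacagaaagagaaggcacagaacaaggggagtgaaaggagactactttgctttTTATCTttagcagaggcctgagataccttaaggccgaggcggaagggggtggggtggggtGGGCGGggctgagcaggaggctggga
Alad, GRCm38.p6 chr4:62520064-62520313, minus strand: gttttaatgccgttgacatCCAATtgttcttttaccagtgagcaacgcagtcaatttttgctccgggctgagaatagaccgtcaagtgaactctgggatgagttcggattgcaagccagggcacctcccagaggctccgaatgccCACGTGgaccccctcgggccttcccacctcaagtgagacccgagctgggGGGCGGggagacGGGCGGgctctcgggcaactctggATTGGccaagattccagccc
Ppox, GRCm38.p6 chr1:171281187-171281436, minus strand: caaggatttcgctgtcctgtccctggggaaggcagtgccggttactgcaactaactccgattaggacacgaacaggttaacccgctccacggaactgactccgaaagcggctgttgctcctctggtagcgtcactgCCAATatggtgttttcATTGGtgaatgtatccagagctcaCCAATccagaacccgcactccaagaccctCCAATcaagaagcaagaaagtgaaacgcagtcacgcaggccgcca

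Such a window was found for 7 of the 8 genes, with 10 windows in all because 3 genes had more than 1 start. AGATAA was present in the window of Alas2, 86 bases before the start, and in none of the 9 other windows. In RefSeq promoters as a whole, 9.99% of 32851 windows of that length held it. GCATGCG was present before the second start of Alas1, as a pair of overlapping matches on opposite strands, against 3.02% of all windows. CACGTG was found in both Alad windows, in the Urod window and in 1 of the Uros windows, against 6.02% of all windows. The Ppox window held 4 CCAAT matches, at 114, 98, 74 and 45 bases before the start. CCAAT was also found in both Alad windows and in the Urod window, and 33.8% of all windows held at least 1 match. The GC box was found before at least 1 start of Alas1, Alas2, Alad, Uros and Urod, against 32.7% of all windows. The motifs were chosen with the expression values known, the E-box and the GC box do not overlap in the Alad window shown, and a match describes the letters only.

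All 8 enzymes gave signals above background in all 5 replicates (limma's one-sided moderated test, Benjamini-Hochberg adjusted over 18116 genes, highest adjusted p = 3e-14). That test called 74.9% of all genes, so the count of 8 of 8 says little about heme synthesis in particular. The median of the 8 mean signals was 11.16, with means from 9.37 to 13.11, and the median over all tested genes was 8.94. In bulk RNA such as this, fewer cells with a transcript and less of it per cell cannot be told apart. By probe set, 16 of 19 were above background, against 71.6% of 34871 probe sets. The 3 that were not belonged to Uros, Cpox and Ppox, each of which had at least 1 other probe set well above it.

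**Figure D1:**
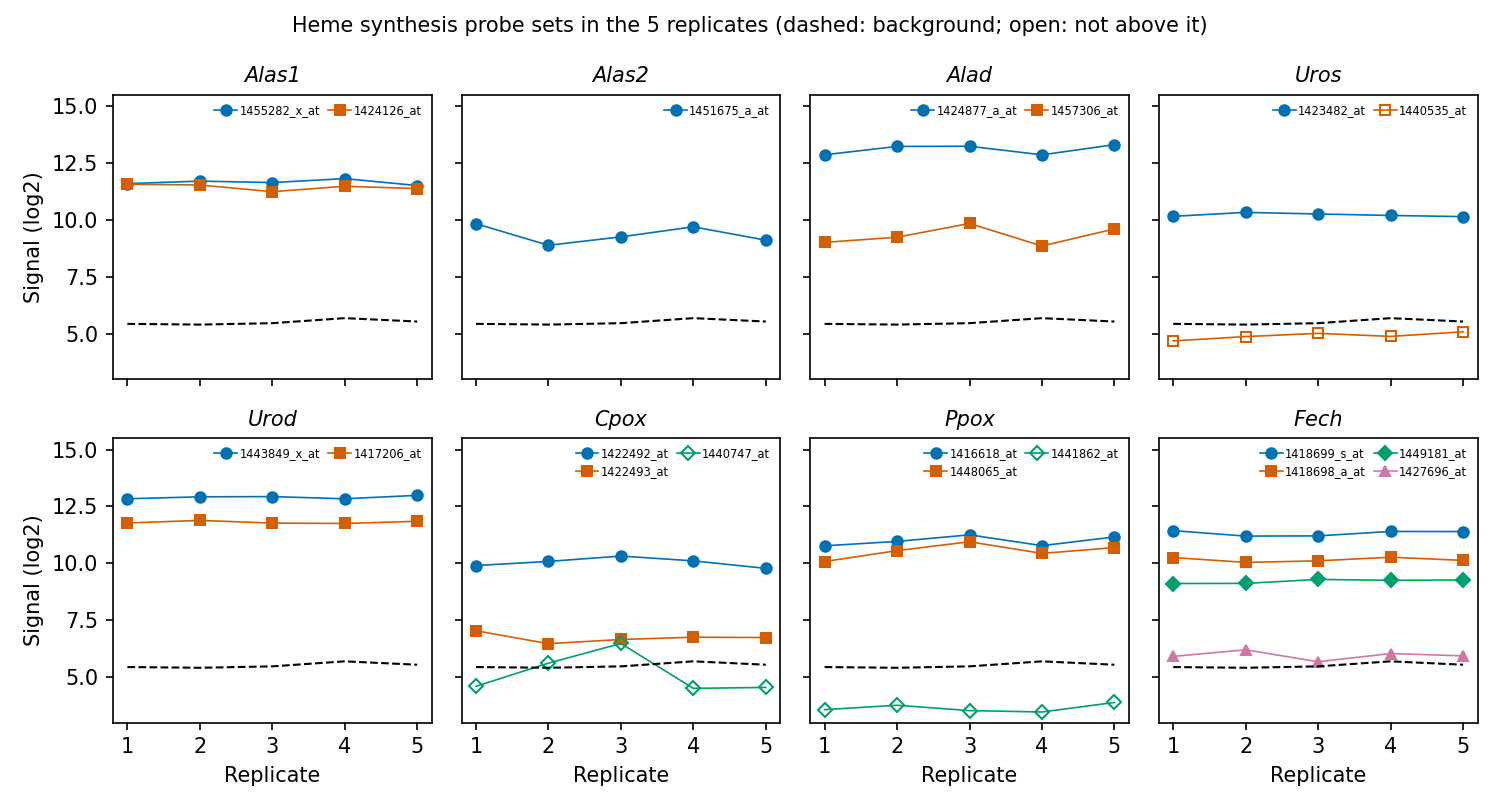
Log2 signal of the 19 probe sets of the 8 enzymes in replicates 1 to 5, 1 panel a gene; lines join the values of a probe set and imply no order of the replicates. The dashed line is the background of each array (5.41 to 5.69), and open symbols are the 3 probe sets not above it.

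The first enzyme was represented by both isozyme genes. Alas1, the isozyme of most tissues, read 11.60, 11.72, 11.65, 11.82 and 11.52 in replicates 1 to 5, a mean of 11.66 ± 0.12 (SD, n = 5) and 6.15 log2 units above background (adjusted p = 4.05e-20). The lowest and highest replicates differed 1.24-fold. Its other probe set read 11.58, 11.54, 11.25, 11.49 and 11.39. The probe sets did not rank the replicates alike: replicate 4 was highest on the first and replicate 1 on the second, and their deviations differed by a root mean square of 0.14.

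Alas2, the X-linked erythroid isozyme, read 9.84, 8.89, 9.26, 9.71 and 9.12, a mean of 9.37 ± 0.40 (SD, n = 5) and 3.85 log2 units above background (adjusted p = 3e-14). Replicates 1 and 4 were high and the other 3 low, with a 1.93-fold range, the widest of the 8 genes as represented here. The gene rested on 1 probe set, of a type (_a_at) whose probes match several transcripts of 1 gene. Its variance was 4.83 times that fitted for genes of its signal (F test, adjusted p = 0.942), so it did not pass the spread test.

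The difference between the isozymes on the same array, Alas2 minus Alas1, was −1.76, −2.82, −2.39, −2.12 and −2.40 in replicates 1 to 5. The size of such a difference between probe sets has no meaning as a ratio of transcripts, but its change between arrays does not depend on a shift common to all genes. That change spanned 1.06 log2 units, or 2.09-fold, and the difference was smallest in replicate 1.

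Cytosolic enzymes were next in the pathway. Alad encodes aminolevulinate dehydratase, which condenses a pair of aminolevulinate molecules into porphobilinogen. It read 12.87, 13.24, 13.25, 12.87 and 13.32, a mean of 13.11 ± 0.22 (SD, n = 5) and 7.60 log2 units above background (adjusted p = 3.91e-20). Replicates 1 and 4 were lowest and lay together, 0.37 log2 units below the nearest of the others. The second Alad probe set read 9.02, 9.25, 9.85, 8.86 and 9.61 and was also lowest in replicates 4 and 1, with a 1.99-fold range.

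Uros, whose enzyme closes the ring as uroporphyrinogen III, read 10.17, 10.34, 10.27, 10.21 and 10.16 (mean 10.23 ± 0.077, SD, n = 5; range 1.14-fold). Its second probe set had a mean of 4.92, below background. Urod encodes the decarboxylase that turns uroporphyrinogen into coproporphyrinogen, and it read 12.84, 12.92, 12.93, 12.84 and 12.99. With a mean of 12.90 ± 0.065 (SD, n = 5) and a 1.11-fold range it varied least of the 8 genes. The other Urod probe set read 11.77, 11.89, 11.77, 11.75 and 11.85, and the deviations of the pair differed by a root mean square of only 0.047.

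The last steps take place in mitochondria. Cpox, coproporphyrinogen oxidase of the space between the membranes, read 9.90, 10.08, 10.32, 10.11 and 9.78 (mean 10.04 ± 0.21, SD, n = 5), highest in replicate 3. Its probe sets disagreed: the second read 7.04, 6.47, 6.65, 6.75 and 6.74, highest in replicate 1. The third read 4.59, 5.61, 6.48, 4.50 and 4.55, not above background over the 5 arrays (adjusted p = 1) though 1.01 log2 units above it in replicate 3, the array with the largest 3′ to 5′ differences. The part of those differences in the Cpox values was not tested.

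Ppox, protoporphyrinogen oxidase, read 10.77, 10.96, 11.25, 10.78 and 11.16, a mean of 10.98 ± 0.22 (SD, n = 5). Replicates 1 and 4 were the lowest, as for Alad. The second Ppox probe set read 10.08, 10.56, 10.95, 10.44 and 10.69 and again was lowest in replicates 1 and 4 and highest in replicate 3. The third had a mean of 3.64 and was not above background.

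Fech encodes ferrochelatase, the enzyme of the inner mitochondrial membrane that inserts iron into protoporphyrin. It read 11.44, 11.20, 11.21, 11.40 and 11.40 (mean 11.33 ± 0.12, SD, n = 5; range 1.18-fold). Probe sets with means of 10.16 and 9.21 had ranges of 1.17-fold and 1.13-fold. The weakest read 5.91, 6.20, 5.67, 6.03 and 5.93, only 0.44 log2 units above background (adjusted p = 0.0028). That last call was lost when the background was the 99th percentile of the receptor genes.

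Spread between replicates was compared with that of genes of like signal. None of the 8 genes passed the F test after adjustment (lowest adjusted p = 0.859, Alad). The test called 0 of 18116 genes (0%) at that threshold and 1011 (5.58%) at an unadjusted p under 0.05. Of the 8 genes, 1 (Alad) had an unadjusted p under 0.05, and its variance was 7.30 times the fitted one. Ppox had 2.91 times and Cpox 1.79 times the fitted variance, Alas1 1.05, Fech 0.94, Urod 0.58 and Uros 0.27 times. The ratio of Alas2 was 7.70 without replicate 3, that of Ppox 6.14 with the median over probe sets, and those of the 5 others after Alad also moved by over 1.5 times under some alternative, with no call in any of them. The median SD of the 8 genes was 0.16, and 0.15 over all genes above background.

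**Figure D2:**
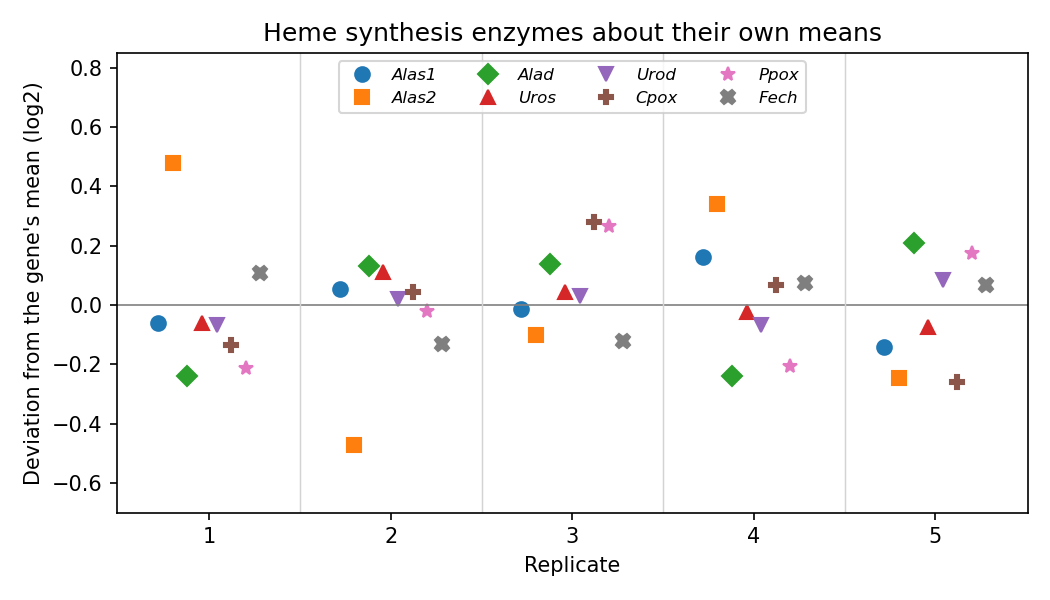
Deviation of each of the 8 enzymes from its own mean over the 5 replicates, in log2 units, with symbols offset sideways within a replicate. Alas2 stands at 0.48 and 0.34 in replicates 1 and 4, where Alad stands at −0.24 in both and Ppox at −0.21 in both.

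The replicates did not order the pathway as a whole. Replicates 1, 3 and 5 were each the highest array for 2 of the 8 genes, against 22.4%, 26.6% and 21.2% of genes above background. Replicates 2 and 4 were highest for 1 enzyme each, against 16.2% and 13.5%. In none of the 8 genes did 1 replicate stand far apart from the other 4 by the ratio of gap to range (Dixon), which 5.35% of genes above background did. Alas2 and Fech had replicates 1 and 4 as their highest arrays, a pattern found in 15.4% of genes above background. Alad, Urod and Ppox had replicates 1 and 4 as their lowest, found in 18.5% of those genes. These shares show that both orders were common on these arrays. The pattern was singled out after the values had been seen, on the probe set of highest mean. The second probe sets of Alad and Ppox had it too. Fech read 11.40 in both replicates 4 and 5. Its probe set with a mean of 10.16 also had replicates 1 and 4 highest. The one with a mean of 9.21 was lowest in replicate 1, and the weakest was highest in replicate 2. The second Urod probe set was lowest in replicates 4 and 3.

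Likeness between members was measured as the root mean square difference of their deviations over the 5 arrays, with no test. Of 28 pairs, Uros and Urod (0.084), Alad and Ppox (0.092) and Alas1 and Uros (0.095) differed least. With the median over probe sets the value of Alad and Ppox was 0.15. The pairs with the largest values were Alas2 with Alad (0.54) and Alas2 with Ppox (0.51). On the same array, Alas2 minus Alad changed by 1.32 log2 units (2.49-fold) between replicates, and Alad minus Ppox by 0.28 log2 units (1.21-fold). Small distances between genes of small range follow partly from the range itself.

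Among other genes above background, those closest to Alas2 by this measure were Hk2 (hexokinase 2, root mean square difference 0.042), Alb (serum albumin, 0.065), Appbp2 (0.067), Trip13 (0.072) and Ccsap (0.075). Hk2 read 11.20, 10.25, 10.65, 11.00 and 10.40. Those closest to Alas1 were Ascc2 (0.019), Echdc1 (0.019), Pura (0.021), Umad1 (0.023) and Vps54 (0.024). With 5 arrays and 13576 genes above background, close neighbours are found for many patterns.

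Erythroid markers were set beside Alas2, the erythroid isozyme. Of 25 listed markers 19 were measured, and 9 of these were above background (47.4%, against 74.9% of all genes). Means ran from 3.11 to 12.34. The adult globin genes Hba-a2 and Hbb-b2 had 12.34 ± 0.079 and 12.14 ± 0.14 (SD, n = 5), and the anion exchanger gene Slc4a1 of the red cell membrane had 8.30 ± 0.75. Also above background were Sptb (6.00 ± 0.30), Ank1 (5.96 ± 0.24), the transcription factor gene Klf1 (6.39 ± 0.36), the erythropoietin receptor gene Epor (6.11 ± 0.34), Tspan33 (8.61 ± 0.19) and Tfr2 (6.42 ± 0.25). Sptb, Ank1, Klf1, Epor and Tfr2 lay only 0.45 to 0.91 log2 units above background. The 10 not above it were Hba-a1, Hbb-bh1, Hbb-y, Epb42, Gata1, Rhag, Rhd, Kel, Trim10 and Ermap, with means of 3.11 to 5.73; Gata1, the master regulator of the lineage, had 4.47 ± 0.53.

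Slc4a1 read 9.01, 7.66, 7.85, 9.22 and 7.76 in replicates 1 to 5, high in replicates 1 and 4 like Alas2, with a 2.94-fold range. Hbb-b2 had the same 2 arrays highest at 12.23 and 12.32, against 11.98 to 12.10 in the others. Those were 2 of the 9 erythroid markers above background. Klf1, only 0.88 log2 units above background, had both arrays lowest (6.07 and 6.19, against 6.26 to 6.99). Over all genes above background, 15.4% had that pair highest and 18.5% had it lowest. Counts this small say little about erythroid markers in particular. The summed linear signal of the 19 markers, mostly globin, was 12050, 10780, 10480, 11930 and 10440 in replicates 1 to 5. That sum includes Hbb-b2 and Slc4a1, so its order is not separate from theirs. With each marker given equal weight, the mean deviation from the marker's own mean was 0.031, −0.087, −0.039, 0.081 and 0.013 log2 units. That mean includes the 10 markers not above background. The part of red cell RNA in the Alas2 signal was not tested.

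**Figure D3:**
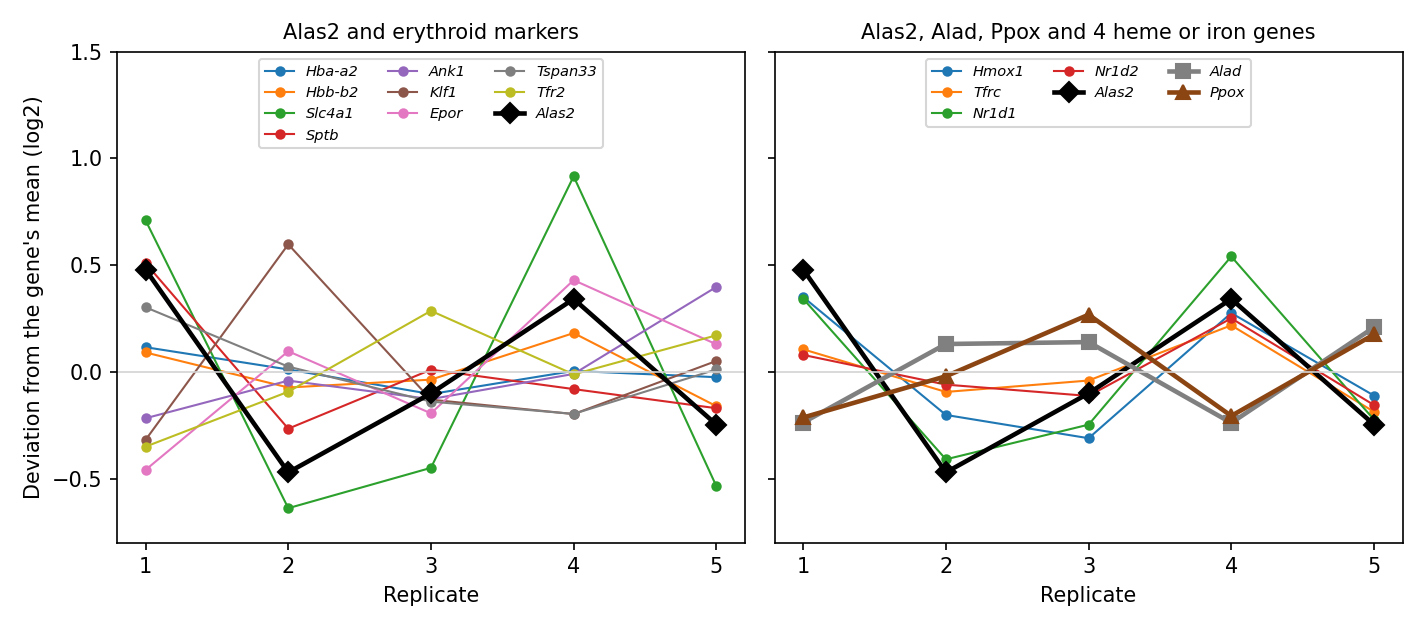
Deviation from the gene's own mean (log2) in replicates 1 to 5; lines join the values of a gene and imply no order. Left, Alas2 with the 9 erythroid markers above background, of which Slc4a1 and Hbb-b2 also had replicates 1 and 4 highest. Right, Alas2, Alad and Ppox with 4 heme or iron genes chosen after their values were seen, which had replicates 1 and 4 highest.

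Markers of other cells were read beside Alad and Ppox. For 11 alveolar type 1 markers, a list added after the data had been seen, replicates 1 and 4 were the lowest arrays for 10, against 18.5% of genes above background. Because the list was added so late, that count is a description and not a test. The exception was Pdpn, highest in replicate 4 (13.38), and Ager, among the 10, ranged only 1.03-fold. The summed linear signal of the 11 markers was 96710, 114800, 115300, 102800 and 113300. The 8 alveolar type 2 markers had summed signals of 159900, 154500, 159600, 165000 and 150900, highest in replicates 4 and 1, and those replicates were the highest pair for 4 of the 8 (Sftpa1, Slc34a2, Napsa and Lpcat1), against 15.4% of genes above background. Alas2 was high in those replicates too. The type 2 marker sums of replicates 1 and 3 were nearly equal, and the 5 sums spanned 1.09-fold. Macrophage markers had summed signals of 29530 to 31980, in which Lyz2 had the highest signal (mean 14.34). With each of these markers given equal weight, their mean deviation was −0.008, 0.034, −0.471, 0.168 and 0.276 in replicates 1 to 5, lowest in replicate 3. Alad and Ppox were low in the same replicates as 10 of the 11 alveolar type 1 markers. The part of cell composition in the values of Alas2, Alad and Ppox was not tested.

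Genes that serve the pathway or use its product were nearly all above background. In 8 lists holding 53 genes, 50 were measured and 49 called (98.0%, against 74.9% of all genes). The exception was Nr1i3, the xenobiotic receptor CAR (5.69 ± 0.23, adjusted p = 0.124). The lists were chosen with earlier results of these data known, so the higher share says little about heme genes in particular. The counts for single lists below have the same limit, and 74.9% of all genes is the share to set beside them. The median of the mean signals was 10.65 over the 50 genes. None of the 50 passed the spread test after adjustment, and 3 had an unadjusted p under 0.05, against 5.58% of all genes.

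**Figure D4:**
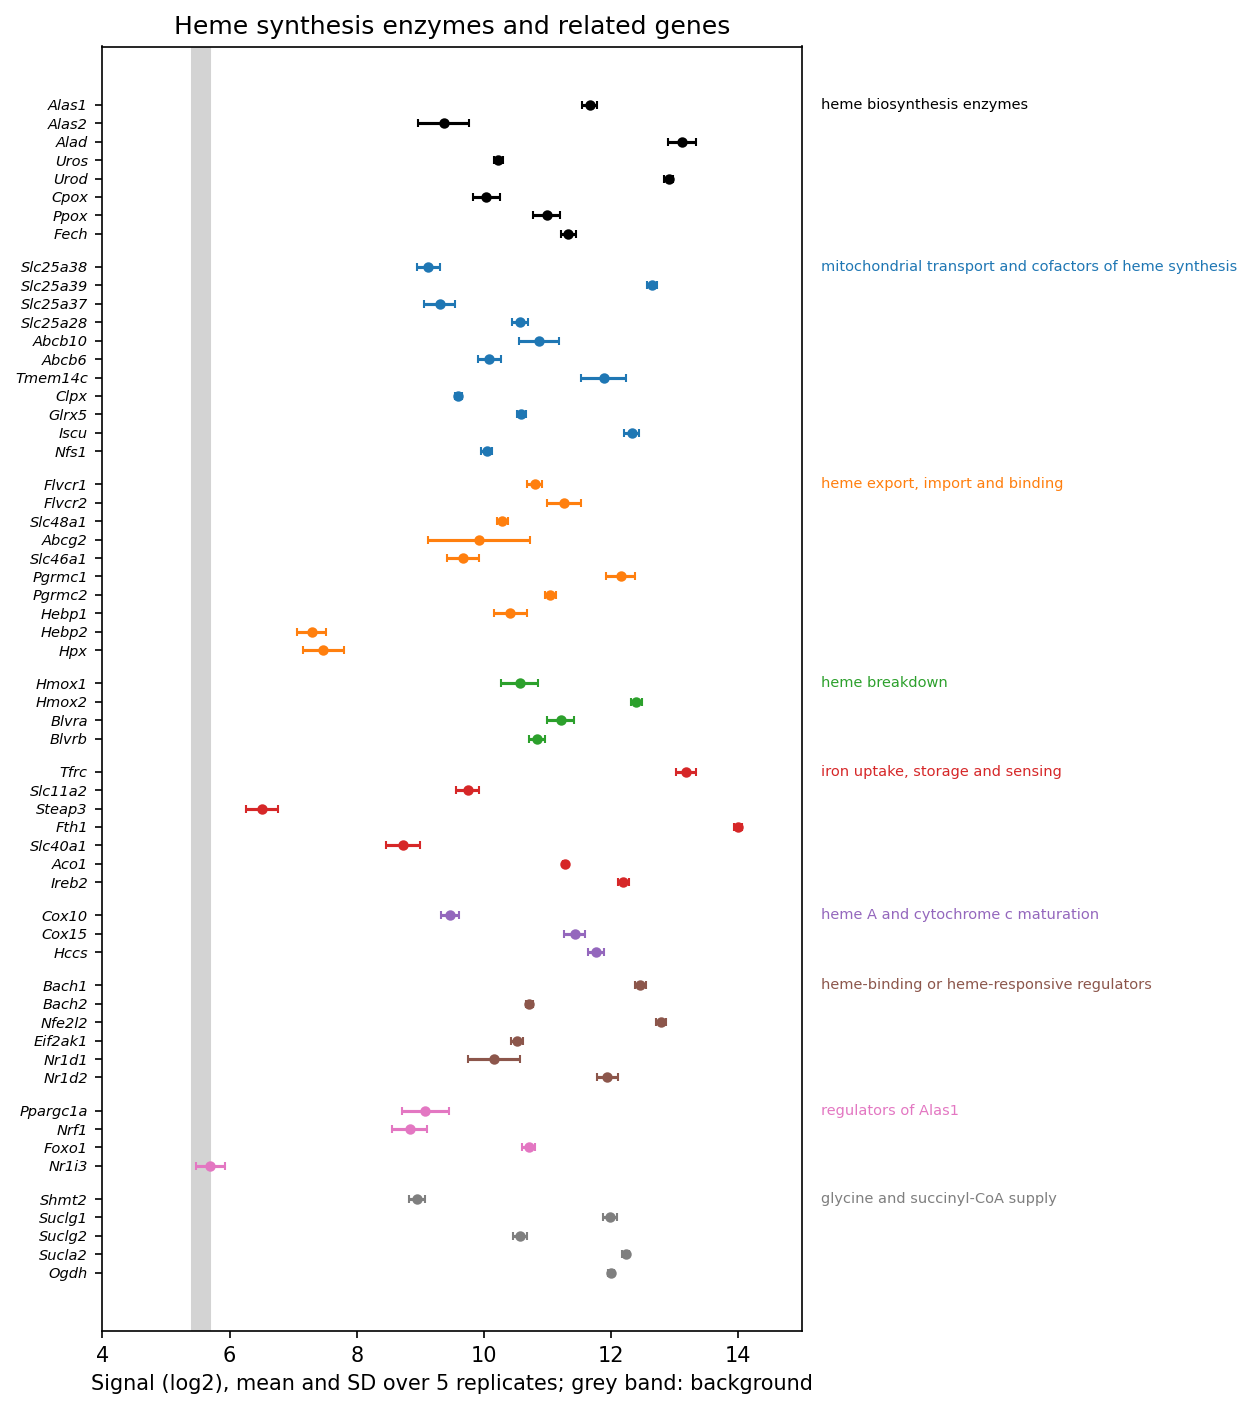
Mean log2 signal with SD over the 5 replicates for the 8 enzymes (black) and the 50 measured genes of the related lists (coloured by list); the grey band spans the background of the arrays (5.41 to 5.69). Nr1i3 lies at the edge of the band (mean 5.69), and Abcg2 has the longest error bar (SD 0.81).

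Mitochondrial carriers and cofactor genes were all called, 11 of 11 measured. Slc25a38, the carrier that brings glycine to the first step, had 9.13 ± 0.18, Slc25a39 12.64 ± 0.081, and mitoferrin 1 (Slc25a37), which imports iron for ferrochelatase, 9.30 ± 0.24. Tmem14c, an inner membrane protein of porphyrin import, read 12.51, 11.83, 11.62, 11.72 and 11.72, with replicate 1 apart from the others. Abcb10, a mitochondrial transporter of erythroid heme synthesis, read 11.26, 10.89, 10.43, 10.71 and 11.04, also highest in replicate 1; it was chosen after its values were seen.

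The first step draws on the citric acid cycle and on glycine. Shmt2, the mitochondrial enzyme that makes glycine from serine, had 8.95 ± 0.13, and the succinyl-CoA ligase genes Suclg1 and Suclg2 had 11.99 ± 0.11 and 10.57 ± 0.11. All 5 genes of that list were called. Of regulators of Alas1, the coactivator gene Ppargc1a read 8.94, 8.96, 9.73, 8.91 and 8.83, apart in replicate 3. In that replicate Alas1 read 11.65, its median, but its other probe set had its lowest value there, 11.25. Nrf1 and Foxo1 had 8.83 ± 0.27 and 10.71 ± 0.10.

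Heme breakdown genes were called in 4 of 4 cases. Hmox1, the inducible heme oxygenase, read 10.91, 10.36, 10.25, 10.84 and 10.45, with replicates 1 and 4 highest as for Alas2. Hmox2, the constitutive oxygenase, had 12.40 ± 0.081 and the biliverdin reductase gene Blvra 11.21 ± 0.21. Heme transport and binding genes were called in 10 of 10 cases, among them the exporter gene Flvcr1 (10.80 ± 0.11), Flvcr2 (11.26 ± 0.27) and the lysosomal heme transporter gene Slc48a1 (10.29 ± 0.084). Abcg2, an exporter of porphyrins and other substrates, read 10.03, 9.06, 11.22, 9.63 and 9.68, a 4.49-fold range with replicate 3 highest. It was chosen after its values were seen.

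Iron genes were called in 7 of 7 cases. Tfrc, the transferrin receptor that brings iron into cells, read 13.28, 13.08, 13.14, 13.39 and 12.99, with replicates 4 and 1 highest. The iron carrier gene Slc11a2 had 9.74 ± 0.18 and the ferrireductase gene Steap3 6.50 ± 0.25, the latter 0.99 log2 units above background. For the maturation of heme A and cytochrome c, Cox10, Cox15 and Hccs had 9.47 ± 0.14, 11.43 ± 0.16 and 11.77 ± 0.13.

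Heme-responsive regulators were called in 6 of 6 cases. Bach1 and Bach2, repressors released from DNA by heme, had 12.46 ± 0.089 and 10.72 ± 0.050, and Nfe2l2, the activator that competes with Bach1, 12.79 ± 0.080. Nr1d1, which encodes the heme-binding clock repressor REV-ERBα, read 10.50, 9.75, 9.91, 10.70 and 9.93, a 1.93-fold range with replicates 4 and 1 highest. Nr1d2, its paralog, read 12.02, 11.88, 11.82, 12.19 and 11.78 with the same 2 arrays highest. Over the 49 called genes, replicates 1 and 4 were the highest pair for 9 and the lowest pair for 8, against 15.4% and 18.5% of all genes above background. Those with the lowest pair were Slc25a38, Iscu, Flvcr2, Pgrmc1, Pgrmc2, Hpx, Suclg2 and Bach2. Flvcr2, for example, read 10.86, 11.30, 11.62, 11.21 and 11.29, lowest in replicates 1 and 4 as were Alad and Ppox.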

How the data were processed

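RNA was amplified with NuGEN Ovation kits, biotin-labelled and hybridised to one-colour Affymetrix arrays, per the labels' protocols. The authors deposited 1 value per probe set and array on a scale taken as log2, since powers of 2 of the values fit a 16-bit scanner. For software, background correction and normalization: not given in the sources used here. Values were used as deposited; no scanner files were used. Of 45101 probe sets, 34958 had 1 symbol in an annotation of the platform, 932 several and 9211 none; the last 2 kinds were left out. The gene identifiers of all 8 members were found in a RefSeq gene table of GRCm38.p6.

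Each array's background was subtracted and an intercept fitted in limma 3.58.1 (R 4.3.3; eBayes with trend); of the 78 receptor genes 4 were called when tested alike. Spread was tested one-sided by F, with 4 residual and 4.20 prior degrees of freedom. The limma and F tests used a Benjamini-Hochberg adjusted threshold of 0.05 and were tested on simulated data. The spread simulated for the F test was far larger than that of the enzymes. How often the F test finds variance ratios like theirs was not tested. Arrays give no counts, so their number limits precision. 1 further pathway item is not reported here. The members and gene lists were chosen with earlier results of these data known. Named were all members, the first 3 measured genes of each list, exceptions to a list's call, genes with 1 array apart, all erythroid markers, and the 5 genes nearest Alas1 and Alas2; others are said to have been chosen after their values were seen, or have replicates 1 and 4 as extremes. Alternatives were other backgrounds, normalizations, filters, probe set rules and leaving out each replicate.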

Additional observations from a re-analysis of the deposited data

Results flagged for a closer look

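Among 88 features examined (19 probe sets of the enzymes and 69 genes of the related and erythroid lists), 4 had 1 replicate far from the other 4, measured as the gap to the nearest value over the whole range. Chance flags about 1 in 20 such groups, and 5.35% of all genes above background met the same criterion. None of the 19 probe sets of the enzymes did. Tmem14c was apart in replicate 1 (12.51 against 11.62 to 11.83, gap 0.769 of the range). Ppargc1a was apart in replicate 3 (9.73 against 8.83 to 8.96, gap 0.865). Suclg1 and Ogdh, of the citric acid cycle, were apart in replicate 5, with gaps of 0.732 and 0.870 but ranges of only 1.20-fold and 1.07-fold.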

How the results depend on the processing

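All 8 enzymes stayed above background under every alternative in which they were measured: 90th or 99th percentile, organ-restricted genes as background (7.36 to 8.46 per array), quantile normalization, median centring, a filter on low features, the median over probe sets, and without each replicate. Without probe sets ending in _x_at, _s_at or _a_at, Alas2 had none left, the other 7 were called, and 10 of 13 enzyme probe sets were called in place of 16 of 19, since fewer were tested. Reversals were the weakest Fech probe set (−0.52 relative to the 99th percentile and −1.82 relative to organ-restricted genes) and the second Cpox probe set (−1.04 relative to organ-restricted genes), because these backgrounds lie higher. With organ-restricted genes, of which some such as Tshb (9.12 ± 0.25) gave signal themselves, 16356 probe sets were called in place of 24972. The spread test called 0 to 2 genes when each replicate was left out, 2 of them without replicate 1, and none was an enzyme; the cause was not tested. Variance ratios of Alad ran from 5.14 to 8.92 and of Alas2 from 3.39 to 7.70 (without replicate 3). Those of Ppox ran from 2.42 to 6.14, of Cpox from 0.80 to 2.25, of Fech from 0.19 to 1.04, of Urod from 0.29 to 0.81, of Alas1 from 0.47 (without replicate 4) to 1.61 (without replicate 3) and of Uros from 0.12 (without replicate 2) to 0.40. The median over probe sets gave 6.14 for Ppox, 0.80 for Cpox and 0.19 for Fech, and Cpox had 1.15 without replicate 5 and 1.19 without replicate 3. No enzyme passed the spread test under these alternatives. No paired analysis was possible because the samples form 1 group.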
